A study of Saccharomyces cerevisiae S288C with 12 samples.

Results

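The core and linker histone genes of budding yeast are the 10 genes described here, out of 6002 nuclear protein-coding genes in the annotation. They were chosen by name, as HTA1, HTB1, HTA2, HTB2, HHT1, HHF1, HHT2, HHF2, HTZ1 and HHO1. Cse4, the yeast form of the centromeric histone H3 variant CENP-A, was mapped around them by chromatin immunoprecipitation and sequencing. All the strains lacked PSH1, the gene of a ubiquitin ligase that marks Cse4 for degradation. In each, the GAL promoter, which galactose switches on, drove a copy of Cse4 tagged with 6His-3HA, so every profile is one of overexpressed Cse4. One strain made the wild type protein, another made K215/216A, in which lysines 215 and 216 are changed to alanine, and the last made K215/216R, in which both are changed to arginine. Cells grew in 2% raffinose at 30 degrees C and received 2% galactose for 2 hours, and the tag was captured on beads carrying an antibody to HA. There were 2 immunoprecipitated libraries per strain, and the 6 input libraries were not analysed here. The labels do not tell whether the replicates came from separate cultures, so spreads and p-values between strains may be technical.

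Core histones are made in bulk while DNA is copied, and each of their genes in yeast stands head to head with the gene of its partner. HTA1 with HTB1, and HTA2 with HTB2, encode histones H2A and H2B. HHT1 with HHF1, and HHT2 with HHF2, encode histones H3 and H4. The space between the starts of such a pair holds the control elements of both genes. HTZ1 encodes the variant H2A.Z, which lies in nucleosomes beside promoters, and HHO1 encodes the linker histone H1. Cse4 takes the place of H3 and pairs with H4, so the balance of H3 and H4 to Cse4 is known to bear on where Cse4 goes. The 10 genes therefore form 6 loci, which are 4 divergent pairs and 2 single genes. Positions are given on the sacCer3 genome, counted from 1.

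A gene was called when a peak of the authors' list overlapped its body or the 1 kb on either side by at least 1 bp. Pairs of values below are for replicate 1 and replicate 2. The wild type lists held 3123 and 4720 peaks, the K215/216A lists 4575 and 4725, and the K215/216R lists 3604 and 4822. Depth, recovered from the peak values as background fragments per base, was 59.5 and 126 for wild type, 146 and 148 for K215/216A, 86.2 and 156 for K215/216R. Wild type replicate 1 was the shallowest library and had the fewest peaks.

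The histone genes were called at rates close to those of all genes, K215/216A being the highest at 9 of 10. The wild type libraries called 6 and 8 of the 10, where 63.8% and 81.7% of all genes were called. K215/216R libraries called 6 and 9 (70.9% and 82.2% of all genes), and K215/216A libraries called 9 and 9 (80.8% and 81.5%). Required in both libraries of a strain, the count was 6 of 10 for wild type (62.1% of all genes), 6 of 10 for K215/216R (68.8%) and 9 of 10 for K215/216A (75.1%), with HTB1 the one missing. That K215/216A count was 8 when libraries were scaled to the lowest depth, 8 with a −log10 q of at least 5, and 7 with 500 bp on either side. HTB2, HHF1, HHT2, HHF2 and HTZ1 were called in all 6 libraries, as were 54.3% of all genes. Every one of the 10 was called in at least 1 library, as were 92.2% of all genes. Peaks that overlapped the windows of the 6 loci numbered 65 in all.

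Of the 65 summits, 49 (75.4%) lay beyond the 3' end of the nearest histone gene, 15 lay upstream of its start, and 1 lay inside a histone gene. That count is a description: a site counts once per library that called it, and the window of a pair holds 1 kb beyond each gene against 646 to 817 bp between the starts. It also takes in summits outside the windows, of peaks that entered by an edge. These lay 1003 to 2036 bp beyond HTB1, HHF2 or HTZ1, and all were counted as beyond the 3' end. Counts per gene over windows of equal size allow a comparison with all genes. A summit within 500 bp downstream of the gene was found at 4 of 10 histone genes in both wild type libraries, against 13.7% of all genes. The count was 5 of 10 for K215/216A, against 19.7%, and 5 of 10 for K215/216R, against 17.9%. HTB2, HHT2, HHF2 and HTZ1 were called downstream in all 6 libraries, as were 8.31% of all genes. HTA2 joined them in both mutants and in wild type replicate 2. In at least 1 library 6 of 10 had one, against 44.7% of all genes. These windows were set after the peaks had been seen, so the counts are a description.

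Many histone genes face a convergent neighbour, whose 3' end points at their own. Among the 6 histone genes in that arrangement, 3 had a downstream summit in both wild type libraries, against 10.1% of the 3026 genes so arranged. Each mutant had 4 of these 6, where the share of all such genes was 14.2% (K215/216A) and 14.6% (K215/216R). Within 500 bp, summits lay inside the neighbour's body beyond HTB2 (in ECM15, 6 libraries), HHT2 (in SIW14, 5 libraries) and HHF2 (in KTR5, 6 libraries). The others within that distance lay between the genes, as did that beyond HTA2 in 5 libraries. Farther out, 1196 to 1291 bp beyond HTB1, 3 libraries had a summit inside its neighbour CRF1. HTB2 also lies near the centromere of chromosome II.

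The upstream counts were at or below those of all genes. Within 500 bp upstream, 0 of 10 genes had a summit in both wild type libraries, against 15.0% of all genes, and 0 of 10 in K215/216R, against 17.6%. K215/216A had 2 of 10, HHF1 and HTZ1, against 23.8%. In at least 1 library 3 of 10 had one, HHO1 being the third, against 49.0% of all genes. Of the intervals between the starts of the 4 head-to-head pairs, 0 held a summit in any wild type or K215/216R library. The interval of HHT1 and HHF1 held one in both K215/216A libraries, so 1 of 4 held a summit in any library. Over all 1527 divergent intervals, the share with a summit in both libraries was 19.3% for wild type, 29.1% for K215/216A and 21.8% for K215/216R, and 50.6% had one in any library. The histone intervals were 646 to 817 bp long. Of the 209 divergent intervals in that range of length, 26.3% (wild type), 40.7% (K215/216A) and 28.2% (K215/216R) held a summit in both libraries, and 65.6% did so in any library.

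Histone gene bodies held almost no summits. For each strain, 0 of 10 bodies held one in both libraries, where the share of all genes was 22.4% for wild type, 26.8% for K215/216A and 24.7% for K215/216R. The bodies are short, at 312 to 777 bp. Among the 1363 other genes of that range of length, those shares were 17.1%, 23.0% and 20.5%. The 1 summit in a body was at HHF1 in K215/216R replicate 2, while 57.7% of all genes and 50.3% of those of like length had one in any library. Peaks did run over the bodies from outside. A peak overlapped 1 of 10 bodies (HHF2) in both wild type libraries, against 33.1% of all genes and 31.5% of those of like length. The same held for 4 bodies (HTB2, HHF1, HHF2 and HTZ1) in K215/216A, against 43.3% and 45.6%, and for 1 body (HTB2) in K215/216R, against 37.3% and 38.0%. Each core histone has a pair of gene copies known to encode the same or nearly the same protein. How reads matching both copies were placed is not given in the sources used here, so the values inside the core histone bodies are uncertain.

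**Figure D1:**
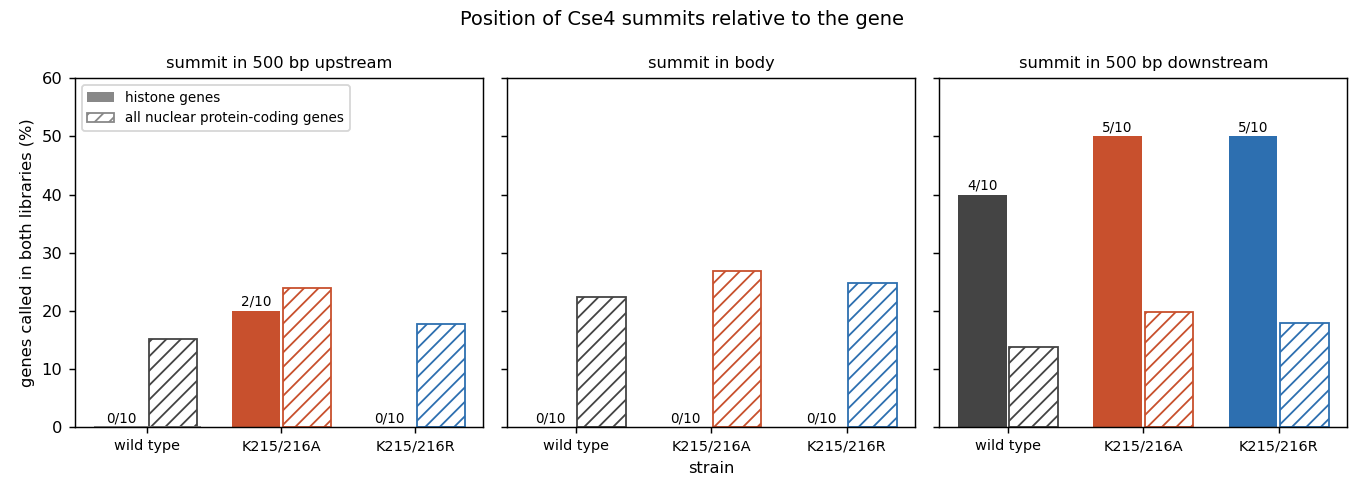
Percent of genes with a Cse4 summit in both libraries of a strain, in the 500 bp upstream (left), in the gene body (middle) and in the 500 bp downstream (right). Solid bars are the 10 histone genes, with their count above, and hatched bars are all 6002 genes. The histone bars stand above the hatched bars downstream, at 4, 5 and 5 genes, and are at 0 in the body.

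HTA2 and HTB2, the minor H2A and H2B pair, made up the locus with the highest ranked peaks. The genes lie on chromosome II at 235394 to 235792 and 236492 to 236887. HTB2 ends 581 bp from the interval between the innermost genes of the chromosome's arms, 237468 to 238940, which holds the centromere. A peak downstream of HTB2 was present in all 6 libraries. Its summit stood at 237337 in 5 libraries and at 237330 in wild type replicate 1, inside ECM15, the last gene before the centromere interval. The summit lay 130 or 137 bp inside ECM15 from that gene's own start and 131 or 138 bp from the edge of the centromere interval.

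The authors' fold enrichment, the pileup at the summit over the local background, was 1.80 and 1.84 there in the wild type libraries (mean 1.82 ± 0.027, SD, n = 2). The values were 2.26 and 2.37 for K215/216A (2.31 ± 0.078) and 1.93 and 2.38 for K215/216R (2.16 ± 0.32). All 4 mutant values were above both wild type values, and K215/216R replicate 1 was closest to wild type. How many of all genes had such a separation in fold was not counted. As a percentile of the fold within each library's own list, the peak stood at 67.3 and 87.3 for wild type, 98.2 and 98.4 for K215/216A, 85.3 and 98.3 for K215/216R. By percentile, K215/216R replicate 1 lay below wild type replicate 2, so K215/216R overlapped wild type. The pileup behind these values was 201 and 408 fragments for wild type, 540 and 515 for K215/216A, 318 and 591 for K215/216R. Fold was ranked within lists and was not tested between strains.

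The same peak was longer in the mutants. It spanned 190 and 386 bp for wild type, 881 and 1298 bp for K215/216A, 628 and 808 bp for K215/216R. Toward HTB2 it began between 236844 and 236871 in all 4 mutant libraries, within the end of the gene, while the wild type peaks began at 237249 and 237113. Toward the centromere it ran 276 and 698 bp into the interval for K215/216A, and 31 and 184 bp for K215/216R. In wild type it ran 31 bp into the interval in replicate 2 and stopped short of it in replicate 1.

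**Figure D2:**
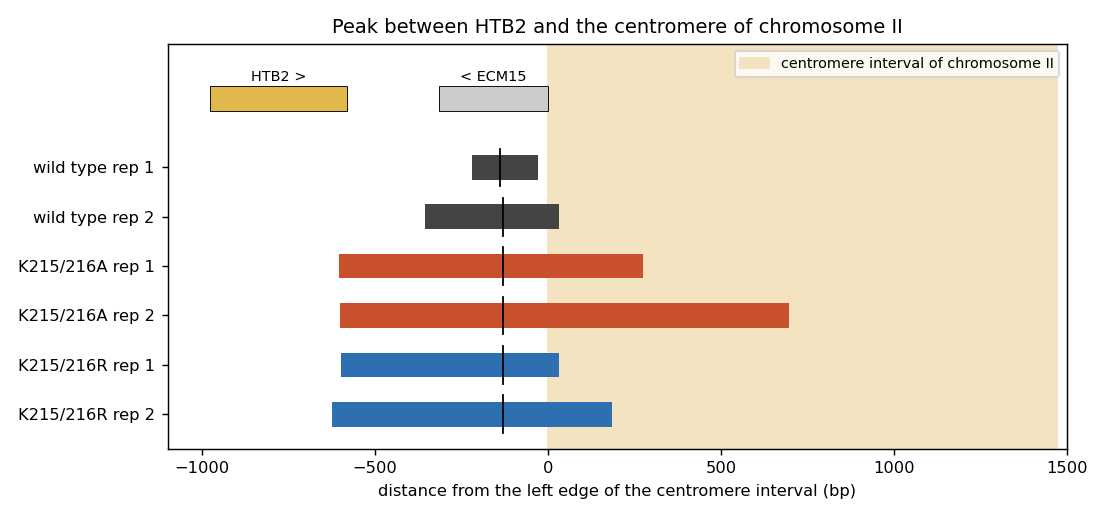
The peak between HTB2 and the centromere of chromosome II in each library. The x axis is the distance in bp from the left edge of the centromere interval (shaded), bars are peaks, black ticks are summits, and boxes at the top are genes with arrowheads for direction. The 4 mutant bars reach back to HTB2 and the wild type bars do not, and K215/216A replicate 2 reaches farthest into the interval, by 698 bp.

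Bases under peaks in the HTB2 window (the body and 1 kb on either side) came to 190 and 386 for wild type, 881 and 1020 for K215/216A, 628 and 808 for K215/216R. Of all genes, 30.2% were higher in K215/216A than in wild type without overlap, and 12.4% were so in K215/216R. K215/216R was lower than K215/216A in that way at 23.0%, and both mutants were above wild type at 8.68%. The HTB2 window had each of these separations. Both mutants exceeded wild type by 546 bp (exact permutation test, two-sided, p 0.067, the smallest that 4 libraries against 2 can give; Benjamini-Hochberg adjusted 0.98 over 6002 genes). K215/216A exceeded wild type by 662.5 bp and K215/216R exceeded it by 430 bp (p 0.33 by exact permutation, the lower limit for 2 libraries against 2; adjusted 0.872 and 1). K215/216R minus K215/216A was −232.5 bp (exact permutation p 0.33, adjusted 1). That last difference turned to 8 bp in favour of K215/216R when 500 bp on either side was counted. Wild type replicate 1, the shallowest library, had the shortest peak. K215/216R replicate 1 was shallower than wild type replicate 2 and had a longer peak. Scaling to the lowest depth left peak length as deposited, so the part of depth in the difference was not tested.

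On the other side of the locus a peak stood 139 bp beyond the 3' end of HTA2, between HTA2 and UTP20, a gene of ribosomal RNA processing. Its summit fell on the same base, 235255, in all 5 libraries that had it. Wild type replicate 1 had no peak there. The fold was 1.57 for wild type replicate 2, 1.89 and 1.63 for K215/216A, 1.79 and 1.72 for K215/216R. The mutants overlapped each other, and both lay above the 1 wild type value. Between the starts of HTA2 and HTB2, over 699 bp, no library had a peak.

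Among genes outside this locus with a peak in all 6 libraries, 3259 in number, VRL1, VPS1 and FPT1 had best-peak percentiles most like those of HTA2 and HTB2. Their mean absolute differences over the 6 libraries were 2.69, 2.71 and 3.12 percentile points. Of the 37 genes that lie within 1 kb of a centromere interval, HTB2 among them, 33 were called in both wild type libraries and all 37 in both libraries of each mutant. By the same rule 62.1% of all genes were called for wild type, 75.1% for K215/216A and 68.8% for K215/216R.

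**Figure D3:**
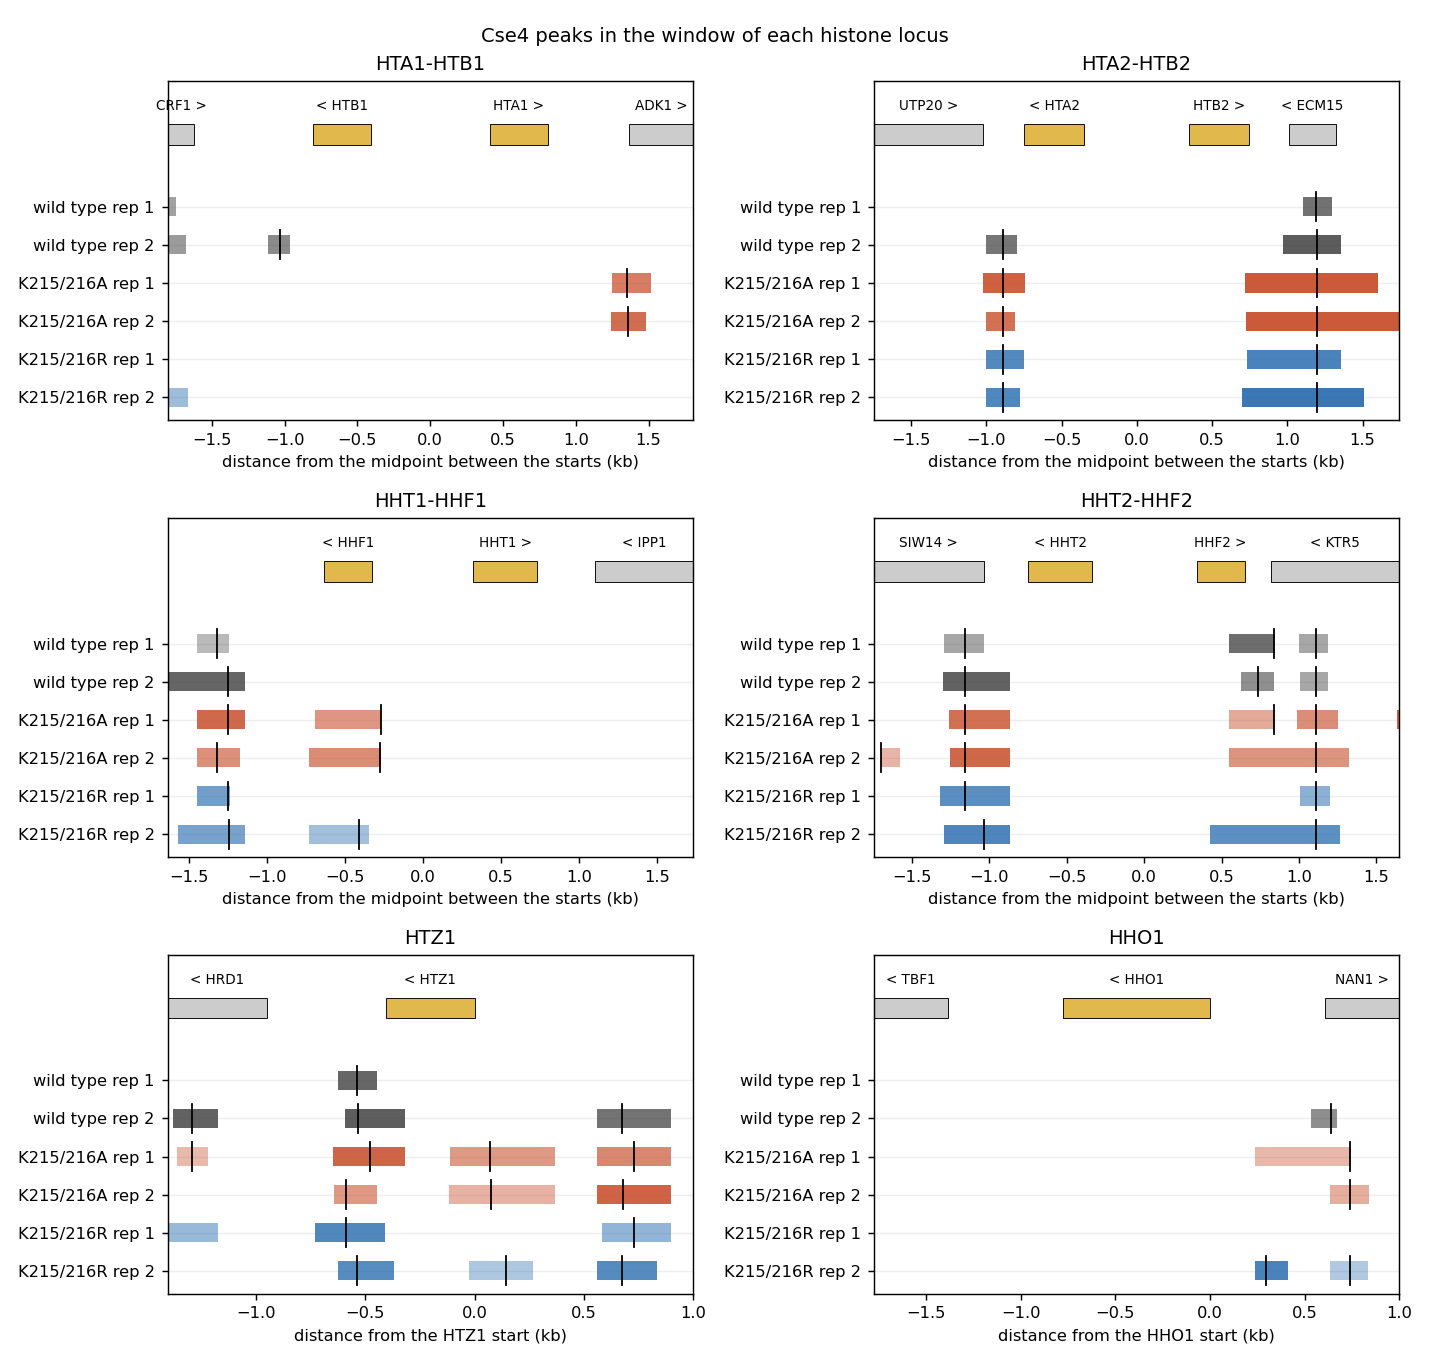
Peaks in the window of each of the 6 loci, by library. The x axis is the distance in kb from the midpoint between the starts of a pair, or from the start of a single gene. Bars are peaks, darker for a higher percentile of fold, black ticks are summits, and boxes are genes (yellow for histone genes) with arrowheads for direction. At the 4 pairs 1 summit lies inside a histone gene (HHF1, K215/216R replicate 2), and the space between the starts is empty except beside HHF1 in K215/216A.

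HTA1 and HTB1, the major H2A and H2B pair on chromosome IV (915530 to 915928 and 914317 to 914712), had few peaks, and they differed by strain. The window of HTA1 held a peak in both K215/216A libraries and in no other library. Among all genes 1.57% had that pattern. The summits lay at 916476 and 916483, 548 and 555 bp beyond the 3' end of HTA1 and 10 and 3 bp before the start of ADK1, the adenylate kinase gene. Their folds were 1.53 and 1.68, at percentiles 65.5 and 80.6, and both peaks stayed when the libraries were scaled to the lowest depth.

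On the HTB1 side the pattern ran the other way. Peaks whose summits lay inside CRF1, a co-repressor gene of ribosomal protein genes, reached the window in both wild type libraries and in K215/216R replicate 2, with folds of 1.49, 1.37 and 1.28. Wild type replicate 2 had a further peak 226 bp beyond the 3' end of HTB1, with a fold of 1.45. The window of HTB1 had 57 and 277 bases under peaks for wild type, 0 and 0 for K215/216A, 0 and 142 for K215/216R. HTB1 was lower in K215/216A than in wild type without overlap, as were 7.98% of all genes. The difference was −167 bp (exact permutation p 0.33, the smallest possible; adjusted 0.872). In every library the 817 bp between the starts and both gene bodies were free of peaks.

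HHT1 and HHF1, the H3 and H4 pair of chromosome II (256331 to 256741 and 255373 to 255684), had peaks on the HHF1 side alone. A peak between HHF1 and FLR1, a drug transporter gene, was present in all 6 libraries, with summits 604 to 680 bp beyond the 3' end of HHF1. These summits also lay 484 to 560 bp before the start of FLR1, the nearest gene start. Wild type had folds of 1.31 and 1.71, K215/216A 1.71 and 1.43, and K215/216R 1.59 and 1.45. The replicates of wild type were the farthest apart, at percentiles 3.43 and 79.1, and the mutants lay between 47.2 and 84.3, so the strains overlapped.

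A peak over HHF1 itself was present in both K215/216A libraries and in K215/216R replicate 2, and in neither wild type library. It ran from 255315 to 255738 and from 255279 to 255740 in K215/216A, with summits 54 and 49 bp upstream of the HHF1 start. In K215/216R replicate 2 it ran from 255279 to 255666, with its summit inside the gene. The folds were 1.39 and 1.45 for K215/216A and 1.26 for K215/216R, at percentiles of 40.9, 51.1 and 14.7. The K215/216A peaks stayed at the lowest depth and the K215/216R peak did not. The −log10 q was 6.04 and 8.82 for K215/216A and 3.02 for K215/216R. No library had a summit nearer to HHT1 than to HHF1, and the HHT1 window was called in these 3 libraries through the HHF1 peak.

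HHT2 and HHF2, the H3 and H4 pair of chromosome XIV (575640 to 576050 and 576727 to 577038), had peaks on both outer sides in every library. On the HHT2 side the summit lay at 575231 to 575233, inside SIW14, a phosphatase gene, in 5 libraries and at 575353 in K215/216R replicate 2. That is 407 to 409 bp and 287 bp beyond the 3' end of HHT2. Wild type had folds of 1.45 and 1.75, K215/216A 1.63 and 1.77, and K215/216R 1.72 and 1.75. Wild type replicate 1 was the low value and the others overlapped. K215/216A replicate 2 had a weak further peak 953 bp beyond HHT2, at a fold of 1.25.

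On the HHF2 side a summit stood at 577500 in 5 libraries and at 577501 in the sixth, inside KTR5, a mannosyltransferase gene, 462 or 463 bp beyond the 3' end of HHF2. Folds there were 1.44 and 1.31 for wild type, 1.43 and 1.41 for K215/216A, 1.46 and 1.61 for K215/216R. A nearer summit, 86 to 187 bp beyond HHF2, was called on its own in both wild type libraries and in K215/216A replicate 1, with folds of 1.84, 1.43 and 1.30. In K215/216A replicate 2 and K215/216R replicate 2 a single peak, 779 and 843 bp long, ran over both places. A further peak of K215/216A replicate 1, with its summit outside the window at 579074, entered it by its edge at 578025. The 676 bp between the starts of HHT2 and HHF2 held no peak.

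HTZ1, the H2A.Z gene on chromosome XV (303579 to 303983), ranked second among the loci. A peak just beyond its 3' end was present in all 6 libraries, with summits 72 to 186 bp from the gene. These summits also lay 358 to 472 bp before the start of HRD1, a gene of protein degradation, which was the nearest gene start. The fold there was 1.91 and 1.81 for wild type, 1.78 and 1.39 for K215/216A, 1.84 and 1.66 for K215/216R. K215/216R overlapped both other strains, and both K215/216A values lay below both wild type values. As percentiles within their own lists, K215/216A stood at 88.1 and 39.4 and wild type at 78.1 and 85.7, which overlapped. Farther downstream, peaks inside HRD1 reached the window in wild type replicate 2, K215/216A replicate 1 and K215/216R replicate 1, at folds of 1.74, 1.22 and 1.39.

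A second HTZ1 site lay upstream, in the space shared with PLB3, a phospholipase gene, with summits 673 to 728 bp before the HTZ1 start. It was called in 5 libraries, all except wild type replicate 1, at folds of 1.60 for wild type replicate 2, 1.46 and 1.84 for K215/216A, 1.43 and 1.66 for K215/216R. In K215/216A replicate 1 and K215/216R replicate 1 its summit was nearer to the start of PLB3 than to that of HTZ1. A weaker site close to the HTZ1 start, 71 to 143 bp before it, was called in both K215/216A libraries (percentiles 37.8 and 14.2 of the fold) and in K215/216R replicate 2 (percentile 5.87). It was absent from both wild type lists, and 1 of its 3 peaks stayed when libraries were scaled to the lowest depth.

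The HTZ1 window had 176 and 819 bases under peaks for wild type, 1292 and 1024 for K215/216A, 869 and 829 for K215/216R. As at 8.68% of all genes, all 4 mutant libraries were above both wild type libraries, K215/216R only just. Both mutants exceeded wild type by 506 bp (exact permutation p 0.067, the smallest possible; adjusted 0.98 over 6002 genes). K215/216A exceeded wild type by 660.5 bp and K215/216R exceeded it by 351.5 bp, and K215/216R minus K215/216A was −309 bp (p 0.33 by exact permutation; adjusted 0.872, 1 and 1). Scaled to the lowest depth, both mutants exceeded wild type by 274 bp with overlapping groups. Without wild type replicate 1 the difference was 184.5 bp, and without wild type replicate 2 it was 827.5 bp. Leaving out those libraries in turn gave 339 and 982 bp for K215/216A minus wild type, and 30 and 673 bp for K215/216R minus wild type. Among peaks with a −log10 q of 10 or more the direction turned, to −75 bp for K215/216A minus wild type, 91 bp for K215/216R minus K215/216A and −29.5 bp for both mutants. For the body alone K215/216R minus wild type was −9.5 bp.

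HHO1, the linker histone gene on chromosome XVI (308828 to 309604), had the fewest peaks, all on its upstream side. There was none in wild type replicate 1 or K215/216R replicate 1. In the other 4 libraries a summit lay 639 to 738 bp before the HHO1 start, inside the 5' part of NAN1, a gene of ribosomal RNA synthesis. The fold was 1.44 for wild type replicate 2, 1.22 and 1.28 for K215/216A, and 1.19 for K215/216R replicate 2. At the lowest depth 1 of these 4 peaks stayed. K215/216R replicate 2 had a further peak 293 bp before HHO1 at a fold of 1.80 and percentile 85.2, and the other K215/216R library had none, so that site rests on 1 library.

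**Figure D4:**
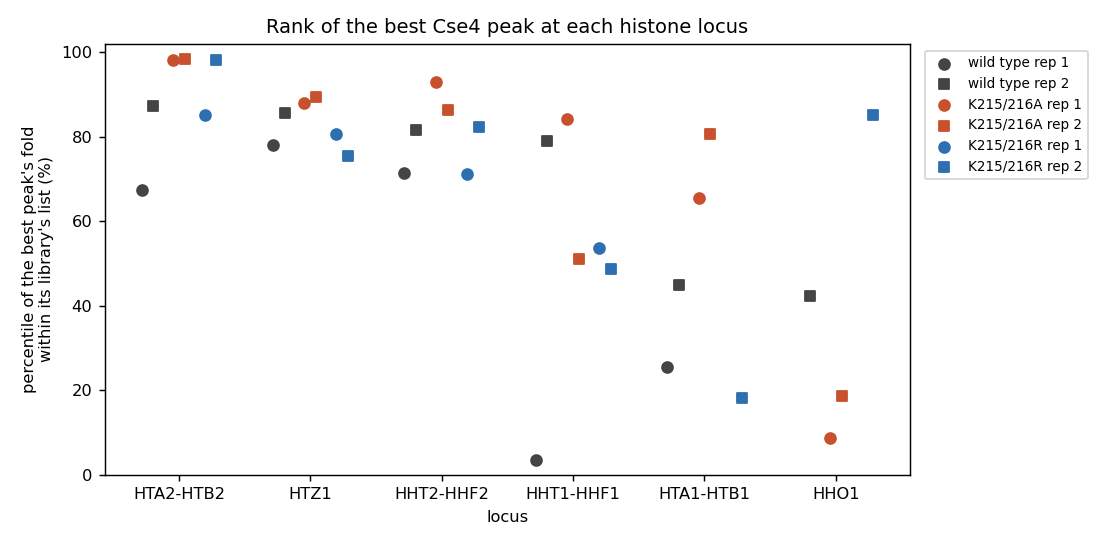
Percentile of the fold of the best peak at each locus within its own library's list, by library. Circles are replicate 1, squares are replicate 2, and colours are strains; a locus with no peak in a library has no point. HTA2 with HTB2 lies between 67.3 and 98.4, and HHO1 between 8.74 and 85.2.

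The order of the loci by mean percentile of their best peak was HTA2 with HTB2 (89.1 over 6 libraries), HTZ1 (82.9 over 6), HHT2 with HHF2 (81.0 over 6), HHT1 with HHF1 (53.4 over 6), HTA1 with HTB1 (46.9 over 5) and HHO1 (38.7 over 4). Neighbours in this order overlapped in their range over libraries in each case. The best peak of HHT2 with HHF2 in K215/216A replicate 1 was the one that enters the window from outside. At HTA1 with HTB1, the best peaks of wild type replicate 1 and K215/216R replicate 2 also entered from outside, at percentiles 25.5 and 18.1.

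Over the 10 windows, K215/216A exceeded wild type without overlap at 8 and lay below it at 1, HTB1. Of all genes, 30.2% were higher in that way. K215/216R exceeded wild type without overlap at 3 (HTA2, HTB2 and HTZ1), against 12.4% of all genes, and lay below it at 0, against 5.81%. Against K215/216A, K215/216R was lower at 4 (HTA1, HTB2, HHT1 and HTZ1), where 23.0% of all genes were, and higher at 0, where 8.31% were. Both mutants exceeded wild type at 2, HTB2 and HTZ1, against 8.68% of all genes, and lay below it at 0, against 2.42%. K215/216A minus wild type had a median of 274 bp over the 10 windows and 76.5 bp over all genes. Windows of the paired genes share peaks, so the 10 are not separate observations. Scaled to the lowest depth, the 8 windows higher in K215/216A became 4, against 23.7% of all genes. By the exact permutation test with Benjamini-Hochberg adjustment, 0 of 6002 genes passed 0.05 in any of the 4 comparisons, and 0 had an unadjusted p under 0.05, which these group sizes cannot reach.

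**Figure D5:**
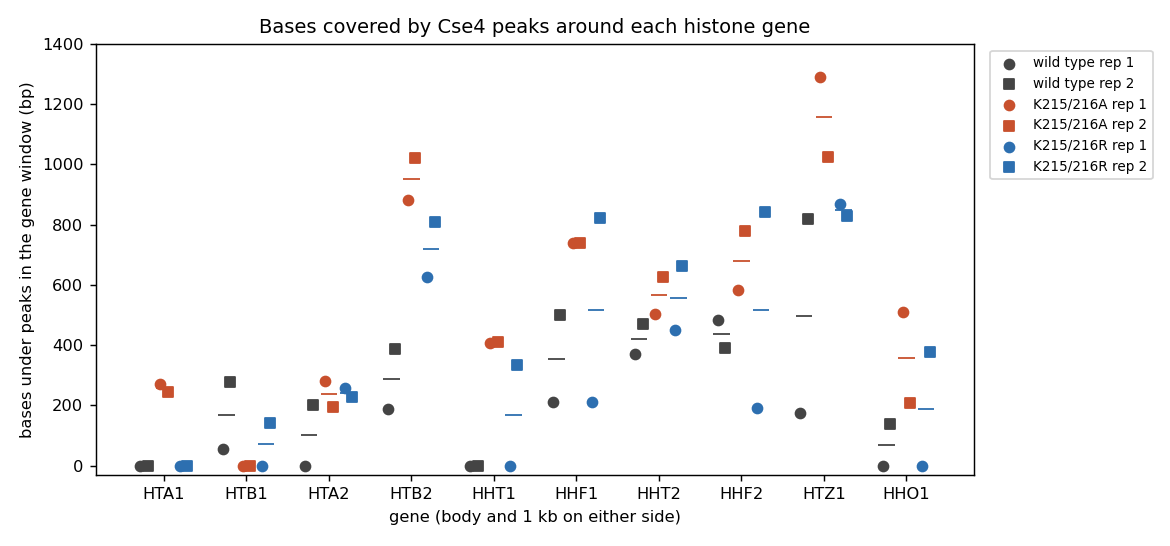
Bases under Cse4 peaks in the window of each histone gene, by library. Circles are replicate 1, squares are replicate 2, colours are strains and short lines are the means of 2 libraries. At HTB2 the mutants (628 to 1020 bp) lie above wild type (190 and 386 bp), and HTA1 is above 0 in K215/216A alone.

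The regulators of histone genes and the histone chaperones, a list of 24 genes, were called at close to the rate of all genes. Both libraries called 17 of 24 (70.8%) for wild type, 18 (75.0%) for K215/216A and 16 (66.7%) for K215/216R, where the shares of all genes were 62.1%, 75.1% and 68.8%. The highest ranked of those called in every library were CHZ1, a chaperone of H2A.Z with H2B, HIR2, a subunit of the HIR repressor of histone genes, NAP1, a chaperone of H2A with H2B, CAC2, a subunit of the assembly factor CAF-1, and SPT10, an activator of the core histone genes. Their mean percentiles were 94.8, 88.1, 86.5, 83.2 and 82.2. SCM3, the chaperone that delivers Cse4 to centromeres, and SPT16, a subunit of the chaperone FACT, had no peak over the body or 1 kb on either side in any library. Within 500 bp upstream, 4 of the 24 (16.7%) had a summit in all 6 libraries, CHZ1 and NAP1 among them, against 9.50% of all genes. CAC2 had one in 4 libraries, and HIR2 and SPT10 had one in none.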

How the data were processed

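Reads were aligned to sacCer3 with Bowtie 1.0.0 and peaks were called with MACS2 2.1.1.20160226, per the submitters' processing notes; the control, the filters and the treatment of reads matching several places are not given in the sources used here. The authors deposited 1 peak list per library, with the fold enrichment as a ratio at the summit, the −log10 p and −log10 q, and a score of 10 times the −log10 q. The authors' fold described and ranked peaks within a list. Summits (start plus offset) are given counted from 1. Genes came from the RefSeq R64 annotation, which is sacCer3. Each peak's fold and p together fix its pileup and its local background. Solving for them gave a pileup within 0.02 of a whole number for 96.7% to 99.8% of each library's peaks, and the lowest background in a list served as its depth.

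Bases under peaks were counted for each gene window and compared by exact permutation over libraries, two-sided, with Benjamini-Hochberg adjustment over 6002 genes. The smallest p is 0.33 for 2 libraries against 2 and 0.067 for 4 against 2. Peaks were also scaled to the lowest depth by multiplying pileup and background and reapplying the p threshold, which leaves peak length as deposited. All members were named, the list of regulators named those called in every strain or in no library, at most 5 of each, and the 3 most alike genes were taken for the best ranked locus. The members and lists were chosen with earlier results of these data known, and the downstream counts and the comparisons with genes and intervals of like length were added after the peaks had been seen. Scripts were tested on simulated data. Python 3.11.15, NumPy 2.4.6, pandas 2.3.3, SciPy 1.17.1 and Matplotlib 3.10.9 were used.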

Additional observations from a re-analysis of the deposited data

How the results depend on the processing

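Counting the gene body alone gave 1 called histone gene for wild type, 4 for K215/216A and 1 for K215/216R. A −log10 q of at least 10 gave 1, 4 and 3 called genes, 1, 3 and 3 genes with a downstream summit, and 0 histone pairs with a summit between the starts in K215/216A. Windows higher in K215/216A than in wild type without overlap, 8 as reported, numbered 5 with 500 bp on either side (27.9% of all genes), 4 with a −log10 q of 5 or more (24.6%), 4 at equal list length (23.5%), 4 at the lowest depth (23.7%), 3 for the body alone (15.9%) and 1 with a −log10 q of 10 or more (16.5%). For K215/216R against wild type the 3 became 1 for the body alone (7.48%). For both mutants the 2 became 1 for the body alone, at equal list length, at the lowest depth and with the −log10 q threshold at 5 or 10 (3.82% to 7.88%). Windows lower in K215/216R than in K215/216A, 4 as reported, became 2 for the body alone (11.6%) and 1 with that threshold at 10 (10.9%).

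Leaving out 1 library gave 6 to 8 called genes for wild type, 9 for K215/216A and 6 to 9 for K215/216R, and 4 to 6 downstream summits for wild type, the highest without wild type replicate 1 and without K215/216R replicate 1. Windows higher without overlap ranged from 8 to 9 for K215/216A, 3 to 8 for K215/216R and 2 to 7 for both mutants, and windows lower in K215/216R than in K215/216A from 4 to 8. The shares of all genes rose too, since fewer libraries loosen the rule. Without K215/216R replicate 1 the counts were 8 for K215/216R (46.6% of all genes) and 7 for both mutants (22.9%). Without wild type replicate 2 they were 9 for K215/216A (56.0%), 5 for K215/216R (43.0%) and 5 for both mutants (35.2%). Without K215/216R replicate 2, 8 were lower in K215/216R than in K215/216A (51.9%). In the HTB2 window, K215/216R minus K215/216A reversed to 8 bp with 500 bp on either side and to 8 bp for the body alone. In the HTZ1 window, at a −log10 q of at least 10, K215/216A minus wild type was −75 bp, K215/216R minus K215/216A was 91 bp and both mutants minus wild type was −29.5 bp; for the body alone K215/216R minus wild type was −9.5 bp. The cause was not tested. The other 50 of 56 values for these 2 windows kept their direction. The 2 windows were picked because all 4 mutant libraries lay above both wild type libraries there. A replicate block leaves the mean difference as it was. Both −log10 q thresholds, equal list length and the lowest depth left each HTB2 difference unchanged. Much of that count therefore could not show a change of direction.

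With the replicate number as a block (exact sign-flip test, smallest p 0.5), both pairs were higher at 8 windows for K215/216A (37.6% of all genes), 5 for K215/216R (27.6%) and 8 for both mutants (38.7%), and no gene passed 0.05. Differences between replicates correlated over genes at −0.0084 for wild type with K215/216A and 0.030 for K215/216A with K215/216R. For wild type with K215/216R the value was 0.236. Depth by replicate was 59.5 and 126 for wild type, 146 and 148 for K215/216A, 86.2 and 156 for K215/216R. The part of depth in that value was not tested. Whether the replicate numbers pair libraries was not settled, and the main comparisons did not pair them.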

Other observations

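Linking each summit to the next when they lay within 100 bp gave 21 sites, of up to 114 bp from first to last summit, at the 6 loci, of which 4 were called in all 6 libraries, 3 in 5 libraries and 7 in 1 library. The 4 were those beyond HTB2, HHF1, HHF2 and HTZ1, each beyond the 3' end of its histone gene. Those beyond HHF1 and HTZ1 also lay upstream of the start of the next gene, FLR1 and HRD1. Over whole lists, 22.2% to 34.2% of summits per library had a summit within 100 bp in all 5 other libraries. These shares count single summits of each library, a unit unlike the linked sites, so they are not a measure for the 4 of 21. At HTA2, HTB2 and the KTR5 site of HHF2 the summit fell on the same base in 5 libraries. Of all summits, 7.81% to 9.71% per library fell on the same base in at least 4 other libraries.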
